A study of Homo sapiens with 4 samples.

Results

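MAF, MEIS2, PCP4 and DLX1 are genes used to name neurons other than the granule cell, though the study also used MEIS2 as a marker of anterior hindbrain. The mRNA of all 4 was followed here in TRAP-seq of the human ATOH1 lineage. The 4 genes were chosen by name, and each was measured as the sum over its transcripts, out of 1654 genes whose transcripts could be tied to a gene symbol. The cells were RUES2, a line of human embryonic stem cells, and carried the ATOH1-EGFP-L10a transgene, in which a human ATOH1 enhancer drives a GFP-tagged ribosomal protein. Both kinds of library carried this transgene and came from cultures at day in vitro 28 (DIV28). The cultures had been patterned under puromycin with the SMAD inhibitors SB431542 and LDN-193189, CHIR99021, FGF2, BDNF and BMP7, and the transgenic cells were clonal lines. The 3 IP libraries hold mRNA pulled down with GFP antibodies from independent differentiation experiments, and the 1 input library holds RNA not enriched for tagged ribosomes, which the study also calls unbound. The tag depends on an enhancer that can be active in any progenitor using ATOH1, and a ribosome keeps its tag after the enhancer falls silent.

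In the developing hindbrain, ATOH1 marks the rhombic lip, the germinal zone that gives rise to granule cells, cerebellar nuclei neurons and other glutamatergic neurons. GABAergic neurons of the cerebellum, Purkinje cells among them, arise instead from the ventricular zone, which in mouse expresses PTF1A. MAF encodes a basic leucine zipper factor of the large Maf family, known in mouse from lens fibre cells and from cortical interneurons born in the medial ganglionic eminence. MEIS2 encodes a TALE homeobox factor, a partner of PBX and HOX proteins that marks neurons of the cerebellar nuclei. It is not confined to them, as the study found MEIS2 by RT-qPCR in sorted ATOH1-EGFP cells at an earlier day. PCP4 encodes a small calmodulin-binding protein that is abundant in Purkinje cells. DLX1 encodes a Distal-less homeobox factor of forebrain GABAergic interneurons, which is also used in the mesenchyme of the branchial arches.

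Total estimated counts lay between 34603230 and 37719839 in the IPs, against 41173019 in the input. The labels and the files differ on which library is the input. The library used as input is the one whose file tag recurs in the input sample's title, because with it 176 of 244 genes of large change matched the study's gene table in mean count and fold change, against 23 to 26 with any other library. Its tag differs from the one that the 3 IPs share, and what the tags stand for is not given. Whether the input came from the same cultures as the IPs is not given either. A difference in preparation or between cultures could therefore not be told apart from that between IP and input. Under the labels' own assignment, in which the library used here as IP 1 is the input, the ratio of the group means in TPM was 0.601 for PCP4, 0.766 for MEIS2, 0.878 for MAF and 2.97 for DLX1. All 4 genes thus took the direction opposite to that given below, and edgeR then called 0 of the 43729 genes and transcripts (before adjustment, 1034 were higher and 228 lower at 0.05). With the input used here, ATOH1 itself was at 37.8, 50.6 and 44.1 TPM in the IPs, against 0.304 TPM (7 reads) in the input. Its log2 fold change was 7.49 (SE 0.45, quasi-likelihood test of edgeR, adjusted p = 0.0197).

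PCP4, MEIS2 and MAF had more mRNA in the ATOH1-TRAP IPs than in the input, and DLX1 had less. PCP4 was 38.0 ± 6.92 times the input (SD, n = 3, in TPM), MAF 3.06 ± 0.367 times and MEIS2 2.12 ± 0.179 times. DLX1 was at 0.215 ± 0.0428 of the input level (SD, n = 3), or 4.66 times lower as the inverse of the mean ratio. Each of these SDs covers the spread of the 3 IPs over the same 1 input value, and no spread of the input. The size of the ratios depends on the unit. In CPM, counts scaled to the library size, they were 47.7 for PCP4, 3.735 for MAF, 2.41 for MEIS2 and 0.278 for DLX1. The log2 fold changes of edgeR given below go with the CPM ratios. All 4 genes passed an adjusted p of 0.05 in edgeR's quasi-likelihood test. Of all 43729 genes and transcripts tested, 2.34% were called higher and 1.5% lower, 3.85% in all. Among the 1654 joined genes 28.8% were called higher and 28.2% lower, 57% in all. All 3 IPs lay above the input in 28.2% of the genes and transcripts tested and below it in 33.4%, so that the side on which the IPs of a gene fall says little by itself. A gene could be joined to its transcripts only through the part of the study's table that was read, which holds the genes with the smallest adjusted p there, so each joined gene had to differ between IP and input. The calls of the 4 genes are therefore no evidence independent of that table.

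**Figure D1:**
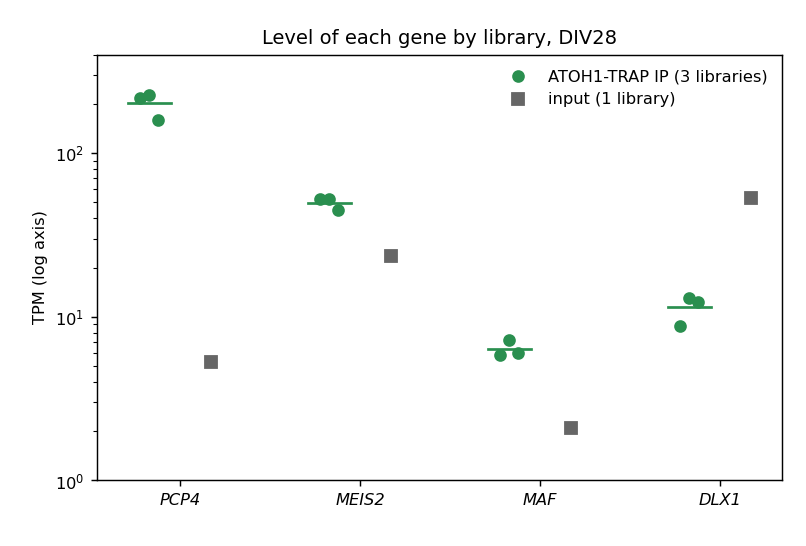
TPM of each gene (log axis) in the 3 ATOH1-TRAP IP libraries (circles, with a line at their mean) and in the input library (square). PCP4, MEIS2 and MAF lie above the input in each IP, and DLX1 lies below it in each IP.

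PCP4, whose short protein binds calmodulin through an IQ motif, was the most abundant of the 4 in the IPs. It was at 217.5, 227.4 and 159.5 TPM in IPs 1 to 3 (201.5 ± 36.7, SD, n = 3), against 5.30 TPM in the input. The lowest IP thus stood far above the input, and IP 3 was the low one of the 3. The values rest on 2026, 2249 and 1671 reads in the IPs, against 46 reads in the input. The 95% Poisson interval of the input reads, 33.7 to 61.4, puts the mean TPM ratio between 28.5 and 51.9. The reads carry no molecular identifiers and can be copies of 1 molecule, so this interval covers counting error only. The log2 fold change was 5.57 (SE 0.33, adjusted p = 0.0197 from edgeR), and 23 of the 1654 joined genes had a larger one. Ordered by TPM among the joined genes, PCP4 stood at places 277, 261 and 325 in the IPs, against place 1406 in the input. In bulk libraries such as these, fewer cells of a type and less RNA per cell cannot be told apart.

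MEIS2 was at 52.5, 52.1 and 45.1 TPM in IPs 1 to 3 (49.9 ± 4.21, SD, n = 3), against 23.6 TPM in the input. The IPs were close together and none reached as low as the input. It drew 3800, 3907 and 3781 reads in the IPs, against 1760 in the input. In CPM, counts scaled to the library size after TMM normalization, the IPs averaged 104.7 ± 2.15, the smallest relative spread of the 4 genes, against 43.5 CPM in the input. The log2 fold change was 1.27 (SE 0.13, adjusted p = 0.0328 from edgeR), and 462 joined genes had a larger one. MEIS2 thus changed least of the 4.

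MAF was at 5.83, 7.24 and 6.03 TPM in IPs 1 to 3 (6.37 ± 0.762, SD, n = 3), against 2.08 TPM in the input. Per unit length it was the lowest of the 4 in each of the 4 libraries. Its reads numbered 1130, 1473 and 1313 in the IPs, against 386 in the input, so that the low TPM goes with a long transcript of effective length 6414 bases and not with few reads. The log2 fold change was 1.90 (SE 0.25, adjusted p = 0.0417 from edgeR). By TPM it stood at places 1406, 1318 and 1346 of the 1654 joined genes in the IPs, against place 1505 in the input.

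DLX1 was at 8.82, 13.1 and 12.3 TPM in IPs 1 to 3 (11.4 ± 2.27, SD, n = 3), against 53.1 TPM in the input. IP 1 was the low library, and the highest IP stayed well under the input. Its 465, 684 and 702 reads in the IPs, against 2450 in the input, leave the level in the IPs well above the floor of 3 reads, so DLX1 mRNA was still detected in every IP. The log2 fold change was -1.85 (SE 0.27, adjusted p = 0.0487 from edgeR). DLX1 was the 1 gene of the 4 whose edgeR call was lost without a filter on low counts (adjusted p = 0.0516) and with an offset for transcript length (adjusted p = 0.0529). By TPM the gene stood at places 1262, 1083 and 1072 among the joined genes in the IPs, against place 745 in the input.

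The order of levels per unit length was PCP4, MEIS2, DLX1 and MAF in the IPs. In the input DLX1 came first, followed by MEIS2, PCP4 and MAF. The ranges over the IPs did not overlap between any neighbours in the IP order: 159.5 to 227.4 TPM for PCP4, 45.1 to 52.5 for MEIS2, 8.82 to 13.1 for DLX1 and 5.83 to 7.24 for MAF. The input order rests on 1 library. With each IP left out in turn, the log2 fold change stayed between 5.46 and 5.68 for PCP4, 1.24 and 1.28 for MEIS2, 1.80 and 1.98 for MAF, and -1.95 and -1.69 for DLX1. No call passed 0.05 with only 2 IPs, where adjusted p lay between 0.102 and 0.199 for the 4 genes. One input library gives no spread of its own, and an exact permutation of 3 libraries against 1 could give no one-sided p below 0.25. The edgeR p-values therefore assume that the input varies as the IPs do.

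**Figure D2:**
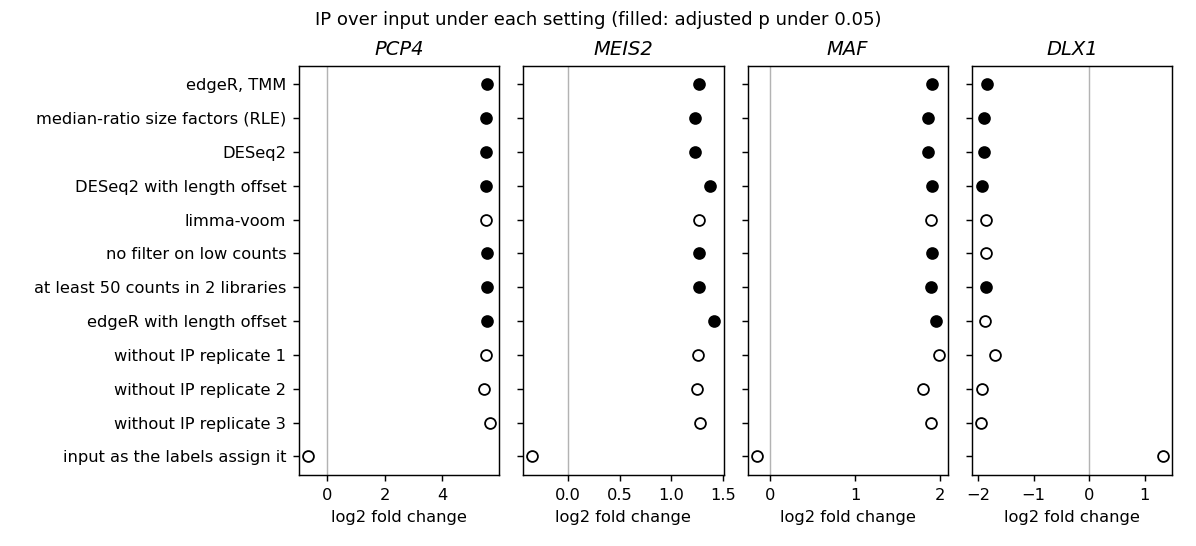
Log2 fold change of each gene, IP over input, under each way of processing (down the page), with filled points where the adjusted p was under 0.05. The direction held with the input used here under every setting drawn, the calls were lost with limma-voom and with 2 IPs, and the sign turned under the labels' assignment of the input.

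In the GRCh37 annotation of GENCODE, MAF lies at chr16:79619740-79634634 on the minus strand, PCP4 at chr21:41239364-41301322 on the plus strand and DLX1 at chr2:172949468-172954405 on the plus strand, and none of these overlaps another annotated gene. MEIS2 lies at chr15:37181405-37393500 on the minus strand and overlaps 2 other genes, of which 1 is an antisense lncRNA. The library kit does not keep the strand, so reads of MEIS2 and of the antisense transcript cannot be told apart where they overlap.

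MEIS2 was the gene whose transcripts differed most between IP and input. It was tied to 12 transcripts of 1942 to 3356 bases. The transcript of 1942 bases was at 16.1, 14.3 and 10.6 TPM in IPs 1 to 3, against 0 reads in the input. Against a floor of 3 reads in the input this is 273-fold higher in CPM, if the estimate of 0 holds. On its own the transcript had an adjusted p of 0.0229 (edgeR), where 1.95% of 46762 single transcripts were called higher and 1.1% lower. The transcript of 1963 bases was at 1.11, 6.13 and 0.871 TPM in the IPs, again with an estimate of 0 reads in the input. Against 3 reads that is 54.7-fold higher, under the same condition (adjusted p = 0.150 from edgeR). Its level in IP 2 was well above that in IPs 1 and 3.

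The 2 transcripts under 2000 bases together took 32.7%, 39.2% and 25.5% of the TPM of MEIS2 in IPs 1 to 3, against 0 in the input. The other 10 transcripts summed to 33.6 ± 1.82 TPM in the IPs (SD, n = 3), against 23.6 TPM in the input, a ratio of 1.43. By these estimates, the larger part of the gene's higher TPM in the IPs came from the short transcripts. The most abundant of the long ones, of 2673 bases, was at 13.8, 13.1 and 13.4 TPM in the IPs, against 9.42 TPM in the input. The one of 3335 bases was at 7.38, 7.55 and 10.4 TPM in the IPs, against 3.46 TPM in the input. Neither passed on its own, with adjusted p of 0.120 and 0.122 (edgeR).

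The opposite pattern stood in the MEIS2 transcript of 2715 bases, which had 0 reads in each IP, against 2.83 TPM (197 reads) in the input. Against 3 reads in each IP that is 59.4-fold lower, if the estimates of 0 hold, with an adjusted p of 0.136 (edgeR). The transcript of 3057 bases was at 2.88, 2.42 and 3.30 TPM in the IPs, against 4.32 TPM in the input (adjusted p = 0.837 from edgeR). Salmon shares reads among transcripts that overlap in sequence, so that an estimate of 0 for one transcript does not show that it was absent. The summed reads of the 12 do not depend on how reads were shared among them, but the summed TPM do, since each transcript's reads are divided by its own length. The ratio of IP to input was 2.12 in TPM and 2.41 in CPM.

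**Figure D3:**
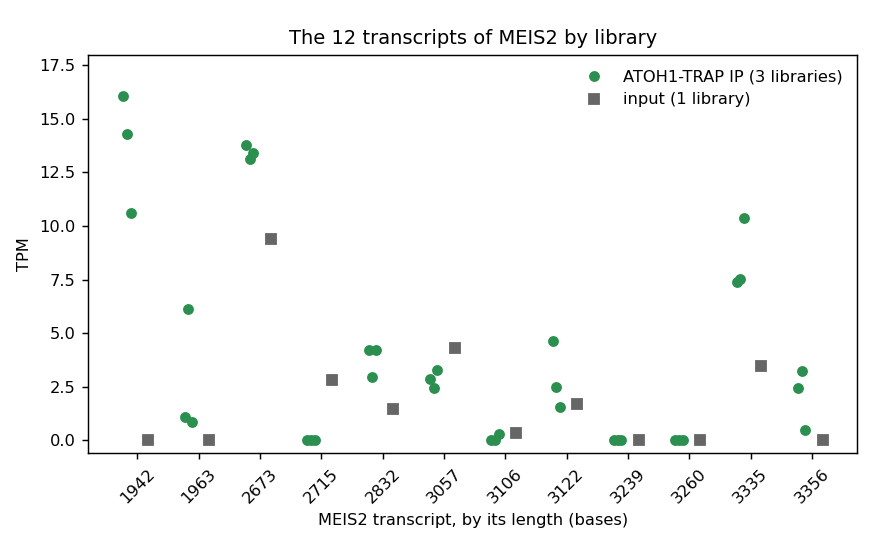
TPM of the 12 MEIS2 transcripts, ordered by length in bases, in the 3 ATOH1-TRAP IP libraries (circles) and the input (squares). By the estimated counts, the 2 shortest had reads in each IP and 0 in the input, and the transcript of 2715 bases had reads in the input alone.

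The other 3 genes showed smaller shifts among their transcripts. MAF was tied to 2 transcripts, and the long one, of 6878 bases, took 94.4%, 92.7% and 94.0% of its TPM in the IPs, against 98.6% in the input. The short one, of 2647 bases, took 5.63%, 7.34% and 5.96% in the IPs, against 1.39% in the input, where it rests on an estimated 1.96 reads. On its own the long transcript kept the call of the gene, with a log2 fold change of 1.88 and an adjusted p of 0.0473 (edgeR). DLX1 was tied to 3 transcripts, of which that of 2382 bases took 66.1 ± 5.95% of the TPM in the IPs (SD, n = 3) and 63.9% in the input. The transcript of 996 bases took 32.7 ± 3.99% in the IPs (SD, n = 3), against 36.1% in the input, a difference within the spread of the IPs. The fall of DLX1 thus showed in both, with log2 fold changes of -1.84 and -1.999 and adjusted p of 0.0507 and 0.185 (edgeR). The third, of 2182 bases, had 30.8 estimated reads in IP 2 and 0 in the other libraries. PCP4 was tied to 1 transcript of 556 bases.

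Fold change moved with transcript length over all joined genes. Those with an effective length under 500 bases had a median log2 fold change of 1.12 (137 genes, 87 called higher and 1 lower), while those over 4000 bases had a median of -1.23 (385 genes, 45 higher and 166 lower). PCP4, with an effective length of 307 bases, lay on the side of its class. MAF, at 6414 bases, was higher in the IPs in a class whose median was lower, and so was MEIS2, at 2454 bases, where the class of 2000 to 4000 bases had a median of -1.10. DLX1, at 1666 bases, was lower in a class with a median of 1.25. The part of length in the 4 results was not tested.

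**Figure D4:**
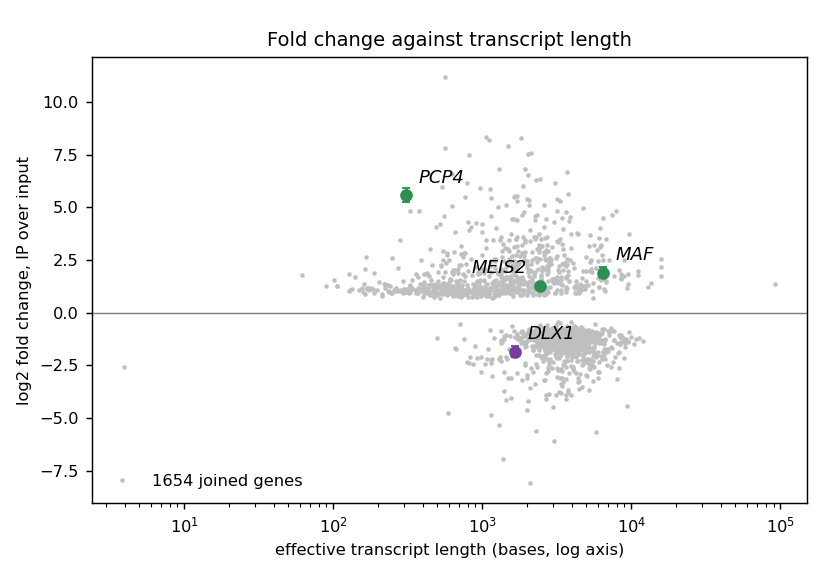
Log2 fold change, IP over input, of the 1654 joined genes (grey) against effective transcript length on a log axis, with the 4 genes in colour (bars, SE). Short genes lie mostly above 0 and long ones mostly below it, and MAF, MEIS2 and DLX1 lie on the other side from the median of their length class.

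Promoter windows of 250 bases before to 50 bases after the start, from RefSeq on GRCh38.p14, were available for MAF, MEIS2 and DLX1. They were searched on both strands for the E-box letters CAGCTG and CAGATG, a class of site that basic helix-loop-helix factors such as ATOH1 bind, and for TGACGTCA, the cyclic AMP response element, and these letters do not overlap one another. The windows of MAF and DLX1 are shown because one gene was higher and the other lower in the IPs. MAF, at chr16:79600688-79600987 on the minus strand, has 2 matches to CAGCTG, in capitals, that begin at positions -180 and -169 from the start, and 1 match to TGACGTCA, left in lower case, that begins at position -45. DLX1, at chr2:172085257-172085556 on the plus strand, has none of these matches.
MAF: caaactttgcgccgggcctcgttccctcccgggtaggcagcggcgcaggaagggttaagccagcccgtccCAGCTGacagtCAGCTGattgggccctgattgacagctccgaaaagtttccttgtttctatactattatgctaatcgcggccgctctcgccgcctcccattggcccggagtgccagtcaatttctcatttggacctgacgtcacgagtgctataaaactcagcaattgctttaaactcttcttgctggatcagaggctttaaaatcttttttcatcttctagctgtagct
DLX1: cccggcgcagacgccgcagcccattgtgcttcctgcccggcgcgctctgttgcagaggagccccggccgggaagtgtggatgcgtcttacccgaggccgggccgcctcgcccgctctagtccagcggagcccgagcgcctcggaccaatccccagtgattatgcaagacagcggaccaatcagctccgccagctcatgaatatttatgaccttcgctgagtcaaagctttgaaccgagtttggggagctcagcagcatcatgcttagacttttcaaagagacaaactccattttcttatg
Of 35116 windows of this length, 17.9% hold CAGCTG and 2.05% hold it 2 or more times, 14.7% hold CAGATG and 1.85% hold TGACGTCA. Neither window of MEIS2 holds any of these letters. A match is a description of the letters and not a bound site.

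Of 20 genes listed for glutamatergic derivatives of the rhombic lip, 7 were joined, MAF and MEIS2 among them. Counting these, 6 were called higher, 0 lower, and the median log2 fold change was 2.57, where all features tested had a median of 0.10 and the joined genes one of -0.57. Of all features 2.34% and of the joined genes 28.8% were called higher, and each joined gene had to differ to be joined. OLIG3, a factor of dorsal hindbrain progenitors, was higher by 6.82, NHLH1, a helix-loop-helix factor of newly born neurons, by 6.31, BARHL1, a homeobox factor of rhombic lip neurons, by 5.51, and NHLH2, a relative of NHLH1, by 2.57 on the log2 scale (edgeR adjusted p of 0.0351, 0.0162, 0.0423 and 0.0346). Their input levels rest on 11, 22, 6 and 182 reads, in the same order. LMX1A, which marks roof plate and unipolar brush cells, was at 7.23, 17.7 and 12.8 CPM in the IPs, against 2.42 CPM in the input (edgeR adjusted p = 0.172, short of the threshold). MAF and MEIS2 had the smallest log2 fold changes of the 7.

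PCP4 was 1 of 3 joined genes from a list of 29 for GABAergic cerebellar neurons and Purkinje cells. Of these 3, 2 were called higher and 0 lower, against 28.8% and 28.2% of all joined genes, with a median log2 fold change of 4.39. The other called gene was PPP1R17, a phosphatase inhibitor of Purkinje cells, at 32.6, 33.7 and 25.04 TPM in the IPs, against 1.81 TPM in the input (log2 fold change 4.39, edgeR adjusted p = 0.0216). In PPP1R17 as in PCP4, IP 3 was the lowest of the IPs. KIRREL2, an adhesion molecule of ventricular zone progenitors in mouse, was at 12.9, 16.9 and 14.3 CPM in the IPs, against 3.36 CPM in the input (edgeR adjusted p = 0.0673, short of the threshold). The other 26 genes of the list were not tied to transcripts here, so nothing can be said of them. The 2 of 3 called higher are among genes that had to differ to be joined. By RT-PCR the study did not find PCP2, a marker of Purkinje cells, in its ATOH1-TRAP IPs.

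PCP4 also headed the 5 joined genes of 19 for calmodulin and its binding proteins. Of these 5, 3 were called higher and 0 lower, against 28.8% and 28.2% of all joined genes, with a median log2 fold change of 1.08. PPP3CB, a catalytic subunit of calcineurin, was higher by 1.26 and MARCKSL1, a membrane protein that binds calmodulin, by 0.68 on the log2 scale (edgeR adjusted p of 0.0423 and 0.0475). GAP43, a growth cone protein, was at 146.8, 185.6 and 195.6 CPM in the IPs, against 83.6 CPM in the input (adjusted p = 0.0825 from edgeR). CAMK4, a calmodulin-dependent kinase of mature granule cells, was at 1.03, 1.41 and 1.62 CPM in the IPs, against 11.7 CPM in the input (adjusted p = 0.0676 from edgeR). CAMK4 was the 1 joined gene of the list below the input, and PCP4 had the largest log2 fold change in it.

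MEIS2 was 1 of 3 joined genes among 18 TALE homeobox genes, and all 3 were called higher, though 2 of 3 with median-ratio scaling or without a filter on low counts, and 0 with limma-voom. The others were the Iroquois genes IRX2, at 34.4, 38.7 and 31.3 TPM in the IPs, against 9.94 TPM in the input, and IRX1, at 31.4, 32.7 and 27.8 TPM, against 16.5 TPM. Their log2 fold changes were 2.20 and 1.23 (edgeR adjusted p of 0.0285 and 0.049). Beside the 3 TALE genes called higher stand 28.8% of all joined genes, each of which had to differ to be joined. Among 18 genes of the MAF family and the AP-1 factors, MAF alone was joined.

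DLX1 was 1 of 3 joined genes from a list of 20 for forebrain interneurons and telencephalon. It was the 1 called lower, while 0 were called higher, against 28.2% and 28.8% of all joined genes. MAF, known in mouse from cortical interneurons too, was counted with the rhombic lip genes and not in this list. As MAF was called higher, these counts depend on how the lists were drawn. DLX2, the neighbour and partner of DLX1 on the chromosome, was at 4.39, 4.64 and 4.23 TPM in the IPs, against 20.2 TPM in the input (log2 fold change -1.65, edgeR adjusted p = 0.0593). Both joined members of the DLX family of 6 thus lay below the input in every IP, but 1 of the 2 missed the threshold. ISL1, a LIM homeobox factor of striatal and motor neurons, was at 11.1, 14.6 and 26.2 CPM in the IPs, against 1.51 CPM in the input (adjusted p = 0.0878 from edgeR), which is the other direction. The median of the 3 was -1.65.

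**Figure D5:**
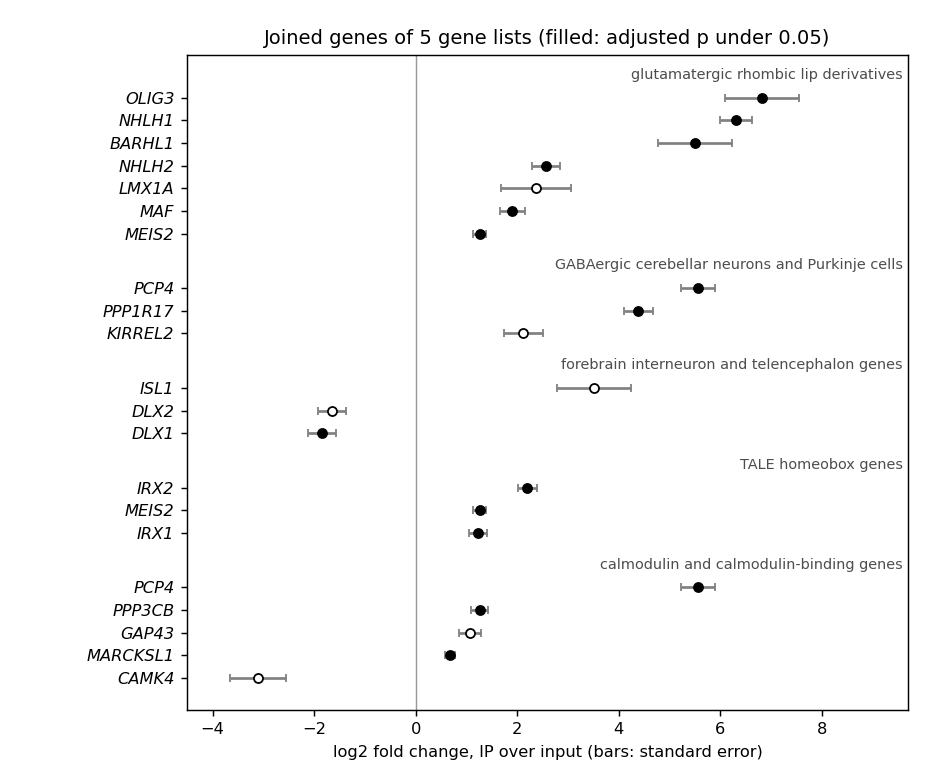
Log2 fold change, IP over input, with SE, of every joined gene in 5 gene lists, with filled points where the edgeR adjusted p was under 0.05. MAF and MEIS2 have the smallest values of the rhombic lip list, PCP4 the largest of the GABAergic and calmodulin lists, and DLX1 the lowest of the forebrain list.

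DLX1 is also a gene of branchial arch mesenchyme, and markers of such cells went both ways. Of 20 mesenchyme and fibroblast markers 7 were joined, 3 called lower and 1 higher, with a median log2 fold change of -1.42. COL1A2 was called lower, with a log2 fold change of -2.31, as were POSTN (-1.80) and COL1A1 (-1.46), TAGLN was called higher (1.06), and DCN (-1.42), PDGFRB (-1.25) and LGALS1 (0.98) did not pass. Their summed level was 3623 to 3845 CPM in the IPs, against 11350 CPM in the input, of which COL1A2 alone took 7220 CPM. Of 20 neural crest and branchial arch markers 7 were joined, 3 called lower and 2 higher, with a median of -0.94. SOX9 (-1.81), MSX2 (-1.40) and SNAI2 (-0.94) were called lower, MSX1 (2.72) and EDNRB (1.40) were called higher, and ALX4 (-1.89) and NGFR (1.09) did not pass. Their summed level was 1047 to 1169 CPM in the IPs, against 1485 CPM in the input. These counts, 4 of 7 and 5 of 7, stand beside the 57% of joined genes called in either direction, since a marker had to differ to be joined. No joined marker of either list was at 0 in the IPs or in the input, and their part in the level of DLX1 was not tested.

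Markers of other cell types are given as a description under the same limit. Beside their counts stand 28.8% of joined genes called higher, 28.2% called lower and 57% called in either direction. Of all features tested, 2.34% were called higher and 1.5% lower. Of 14 endothelial markers 2 were joined, CLDN5 at 12.6 to 29.2 CPM in the IPs, against 0.618 CPM in the input, and ADGRL4 at 64.1 to 69.0 CPM in the IPs, against 691.6 CPM in the input, each called in its own direction. Of 17 neural stem cell and astroglial markers 6 were joined, 3 called higher and 1 lower, with a median log2 fold change of 1.39. HES5 (8.35, with 1 read in the input), SOX2 (3.49) and CLU (1.03) were called higher and TNC (-2.57) was called lower. FABP7 (1.74) and S100B (-1.59) did not pass. The sum of the 6 was 390.9 to 403.4 CPM in the IPs, against 1173 CPM in the input, but TNC alone took 1059 CPM of the input. Of 20 markers of the ATOH1 granule lineage 9 were joined and 8 called higher, HES6 by 5.87 among them. The 8 include BARHL1 and NHLH1, which were already counted in the rhombic lip list. The 9 had a median log2 fold change of 5.11 and summed levels of 2080 to 2360 CPM in the IPs, against 351.0 CPM in the input. The 1 not called, CAMK4 of mature granule cells, lay below the input (-3.10, adjusted p = 0.0676 from edgeR). LIN28A, the 1 joined pluripotency marker of 10, was at 12.1 to 20.3 CPM in the IPs, against 2.13 CPM in the input (adjusted p = 0.0614 from edgeR).

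The joined genes nearest to each of the 4 in pattern were found by Euclidean distance between centred log2(CPM + 0.5) values over the 4 libraries. For MAF these were CCDC152 (distance 0.0712), SOX11 (0.0962), a SoxC factor of young neurons, and DCX (0.101), a microtubule protein of migrating neurons. DCX was at 401.2, 525.4 and 477.5 CPM in the IPs, against 138.2 CPM in the input, with IP 2 highest and IP 1 lowest as in MAF. For MEIS2 the nearest were TMEM178A (0.0479), MSRB2 (0.0485) and EMC6 (0.0592). For PCP4 they were WNT10A (0.0205), a secreted Wnt ligand, CSRP1 (0.156), a LIM domain protein, and IGFBPL1 (0.179). WNT10A was at 0.0989 CPM in the input, under the 0.5 that was added, so its nearness to PCP4 depends on that addition. For DLX1 the nearest were SPARCL1 (0.079), a matricellular protein, LRIG2 (0.091) and IDE (0.151), the insulin-degrading enzyme. All 3 were lowest in IP 1, as DLX1 was. These genes were chosen for nearness over the same libraries, so an order of the IPs shared with DLX1 or MAF is no separate observation. With 4 libraries, of which 1 is the input, such distances are a description only.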

How the data were processed

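RNA of the ATOH1-TRAP IPs and the input was amplified as full-length cDNA (SMART-Seq v4), and Nextera XT libraries were sequenced as single reads. Salmon 0.8.2 was run by the authors on UCSC known genes of hg19. The deposited values, for 69548 transcripts per library with no gene names, are estimated counts and TPM. The authors obtained gene values with tximport and DESeq2 1.20.0.

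Transcripts were tied to genes as runs of 1 to 20 neighbours whose mean count (within 2.5%) and log2 ratio (within 2e-05) equalled a gene of the study's table, whose fold changes were used for this matching alone. Of 1998 genes read (17970 more were not used here), 1754 matched, 94 with several matches and 6 with a shared transcript were left out, and 1654 were joined. With the log2 ratio shifted by 0.05 as a check, 58 matched. Each of the 4 genes had 1 match.

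Joined genes were summed, other transcripts kept on their own and estimated counts rounded, which departs from the gene counts planned. The quasi-likelihood test of edgeR 4.0.16 (R 4.3.3) was run after TMM normalization and edgeR's filter at a minimum count of 10, with Benjamini-Hochberg adjustment at 0.05. CPM are counts over the TMM-scaled library total, and SE is the log2 fold change over the root of the F statistic. Alternatives were median-ratio scaling, DESeq2 1.42.0 and edgeR with a length offset, DESeq2 without it, limma-voom (limma 3.58.1), other filters, each IP left out, the labels' assignment and single transcripts.

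Beside the 4 genes and ATOH1, the genes named were up to 4 joined genes of each of 13 lists with the largest change, and the 3 nearest in pattern. LMX1A, MSX2, SNAI2, NGFR, TAGLN, PDGFRB, LGALS1, S100B and CLU fall outside this rule and were added after their values were seen, to give their lists in full. One further gene of a list is not reported here and was left out of its counts. The genes and lists were chosen with earlier results of these data known. Total depths of 34603230 to 41173019 estimated counts limit levels near the floor of 3 reads. IP replicate numbers come from the file tags.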

Additional observations from a re-analysis of the deposited data

How the results depend on the processing

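With the input used here, the 4 genes kept their direction under all alternatives for the summed gene. With limma-voom the log2 fold changes were 1.90 for MAF, 1.27 for MEIS2, 5.55 for PCP4 and -1.87 for DLX1, and none passed (adjusted p of 0.0777, 0.0689, 0.0793 and 0.070). Leaving out 1 IP gave 1.80 to 1.98 for MAF, 1.24 to 1.28 for MEIS2, 5.46 to 5.68 for PCP4 and -1.95 to -1.69 for DLX1, and no call passed. DLX1 was also lost without a filter (-1.85) and with edgeR and a length offset (-1.88). Under the labels' assignment the values were -0.16 for MAF, -0.34 for MEIS2, -0.66 for PCP4 and 1.33 for DLX1. The cause of these losses was not tested.

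The single transcripts did not all follow their gene. In MEIS2 those of 2715, 3106 and 3057 bases had log2 fold changes of -10.51, -1.33 and -0.25, those of 1963, 2832, 3122, 2673, 3356 and 3335 bases had 10.25, 1.69, 1.07, 0.85, 7.62 and 1.63 without passing, and that of 1942 bases had 12.57 and passed. In MAF the transcript of 2647 bases had 4.03 without passing. In DLX1 those of 996 and 2382 bases had -1.999 and -1.84 without passing, and that of 2182 bases had 6.41. Values against a library at 0 depend on the prior count.

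Over all genes and transcripts, edgeR called 1025 higher and 657 lower. DESeq2 called 5825 and 4022, or 5842 and 4029 with a length offset, and edgeR 1875 and 1174 where at least 50 counts in 2 libraries were asked for. limma-voom called 0 (before adjustment, 3785 were higher and 6392 lower at 0.05), edgeR called 0 with any 1 IP left out (3578 to 4270 higher and 3128 to 3681 lower before adjustment), and 0 under the labels' assignment (1034 and 228). Calls within the lists moved too. Higher calls among TALE and calmodulin genes, 3 each, were 2 each with median-ratio scaling and without a filter, and the 1 higher call each of the endothelial and mesenchyme markers was lost under both. The 1 lower call of the forebrain and DLX lists, DLX1, was lost without a filter. No paired analysis was possible because there is 1 input library. Depth limits the MEIS2 transcripts at 0 reads, whose folds are bounds, and PCP4, whose input level rests on 46 reads. It also limits other large changes. Their input levels rest on 1 read for HES5, 6 for BARHL1, 7 for ATOH1, 11 for OLIG3, 22 for NHLH1 and 25 for CLDN5. HES5 in the input lies under the floor of 3 reads.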
